A study of Mus musculus with 4 samples.

Results

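The genes examined here encode 10 subunits of the BAF chromatin remodelling complex. They were chosen by name from 49997 gene rows: 3 subunits of the neural progenitor form (Actl6a, Phf10, Ss18), 4 of the neuronal form (Actl6b, Dpf1, Dpf3, Ss18l1) and 3 core subunits (the ATPases Smarca4 and Smarca2 and the scaffold Smarcc1). All 10 were found, and 8 passed the count filter of the gene test, while Actl6b and Dpf3 did not. The RNA came from the iMOP cell line, made of immortalized progenitors of the mouse inner ear and labelled wild-type in both groups. The libraries labelled proliferating (2 libraries, numbered 1 and 2) came from cells in DMEM/F12 with N21 supplement, carbenicillin and 20 ng/ml of the growth factor bFGF. The libraries labelled neuron (2, also numbered 1 and 2) came from cells in Neurobasal medium with N21, L-glutamine and 1 µM K03861, an inhibitor of the kinase CDK2. The labels do not say whether libraries of a group came from separate cultures, so a p-value measures only the spread between these libraries, which may be technical.

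BAF complexes use the energy of ATP to move nucleosomes, and each complex carries 1 of a few interchangeable proteins at several positions. When neural progenitors leave the cell cycle, the actin-related protein Actl6a is exchanged for Actl6b, the PHD-finger protein Phf10 for Dpf1 or Dpf3, and Ss18 for Ss18l1. The repressor REST keeps neuronal genes off in progenitors, and the microRNAs miR-9-3p and miR-124 are known to lower Actl6a once neurons form. The study's design compares proliferating cells with derived neurons, and this exchange is one that can be read in that comparison.

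The promoters of the actin-related pair are shown because Actl6b was nearly undetected beside Actl6a, and its window holds letters of the REST binding motif. Both are 300-base RefSeq windows on GRCm38.p6, from 250 bases before the gene's RefSeq start to 50 after, on the plus strand. The Actl6a window lies inside the GENCODE M21 span given for that gene below, downstream of the start of that span. Capitals mark TCAGCACC and GGACAGC, the left and right parts of the REST motif, searched on both strands.
Actl6a (chr3:32708296-32708595): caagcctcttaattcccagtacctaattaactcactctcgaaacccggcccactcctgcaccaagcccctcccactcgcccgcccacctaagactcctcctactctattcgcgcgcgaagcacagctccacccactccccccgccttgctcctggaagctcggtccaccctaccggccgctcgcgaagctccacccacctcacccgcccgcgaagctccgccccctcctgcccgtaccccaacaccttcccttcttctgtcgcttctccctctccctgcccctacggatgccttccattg
Actl6b (chr5:137553296-137553595): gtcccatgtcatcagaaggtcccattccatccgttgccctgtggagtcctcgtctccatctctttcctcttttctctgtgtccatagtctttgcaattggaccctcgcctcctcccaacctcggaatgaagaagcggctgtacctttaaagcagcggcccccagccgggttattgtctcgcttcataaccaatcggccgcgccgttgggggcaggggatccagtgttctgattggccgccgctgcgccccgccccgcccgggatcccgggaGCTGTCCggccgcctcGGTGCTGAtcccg
In Actl6b both parts lie on the minus strand, at bases 288 to 295 and 272 to 278 of the window. The left part occurred in 1.65% of 32851 promoter windows of the same length, the right part in 6.56%, and both together in 43 windows, or 0.131%. Both together were counted at any spacing, in any order and on either strand. Of the 9 listed genes with a window, Actl6b was the 1 that held either part. The GC content was 63.7% in the Actl6a window and 61.7% in the Actl6b window, so the 2 windows were alike in base composition. These motifs were chosen after the windows were seen, and a match describes letters, not binding.

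The microRNA side of the exchange is shown by mature miR-9-3p, from RefSeq, with its seed (bases 2 to 8) in capitals, and by the match to that seed in the 3′ UTR of Actl6a.
miR-9-3p: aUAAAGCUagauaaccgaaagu
Actl6a site (chr3:32726629-32726657, GRCm38, plus strand): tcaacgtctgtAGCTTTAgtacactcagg
The 3′ UTR of the Actl6a-201 transcript in GENCODE M21 is 371 bases long and holds AGCTTTA, the complement of the seed, 1 time. Among 1797 3′ UTRs within 20% of that length, 2.39% held it on the transcript strand. The same mature sequence comes from Mir9-1, Mir9-2 and Mir9-3.

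Total counts ran from 3150354 to 32913243 per library, of which 88.2% to 98.1% fell in 7 ribosomal RNA genes, leaving 292302 (proliferating 1), 614465 (proliferating 2), 3241915 (neuron 1) and 617872 (neuron 2) counts for all other genes. Levels below are TMM-scaled CPM, that is CPM taken over a library total rescaled by edgeR's TMM factor, and a count of 0 allows up to 0.552, 0.33, 0.0519 and 0.359 scaled CPM in the same order, for counting error only. The libraries went against their labels at several markers. The summed level of 10 genes of dividing cells, Mki67 and Top2a among them, was 14.9 and 42.2 scaled CPM under the proliferating label and 135 and 263 under the neuron label, with 10 of 10 genes higher in the neuron library of both numbers. Of 11 tested neuronal markers, 7 were lower in the neuron library of both numbers, among them Map2 and Stmn2, and 2 were higher. Over all tested genes, 25.6% were lower and 27% higher in both numbers. The log2 fold changes of the 11 ran from -3.66 to 3.54, and 3 were positive. Sox2, a factor of otic progenitors, was present in all libraries, at 19.3, 27.5, 8.01 and 11.6 scaled CPM. It went with the labels, both neuron libraries lying below both proliferating ones, as for 6.59% of all tested genes. The otic markers Pax2 and Pax8 had 0 to 1 count in any library. The 15 neuronal markers together summed to 234 and 521 scaled CPM under the proliferating label and 203 and 243 under the neuron label. The 8 spiral ganglion markers summed to 67.0 and 35.1 against 41.8 and 51.0. Glial markers summed to 42.2 and 26.1 against 14.3 and 22.5, but the 4 tested went both ways, with Olig1 and Olig2 lower in both neuron libraries than in both proliferating ones and Aqp4 higher. Hair cell markers summed to 17.1 and 7.71 against 5.99 and 10.3. Mesenchymal and immune markers summed to at most 0.502. The part of these markers in the results was not tested, and fewer cells of a type and less RNA per cell cannot be told apart in bulk RNA.

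None of the 8 tested subunits passed the test between the groups. In edgeR's quasi-likelihood test, 0 of 11525 genes tested (0%) passed an adjusted p of 0.05 in either direction, and each of the 8 had an adjusted p of 1.00. At an unadjusted p under 0.05 there were 0 of the 8, against 129 of 11525 genes (1.12%). DESeq2, run without the count filter, also called 0 genes, with 191 of 23768 at an unadjusted p under 0.05. The 8 log2 fold changes, neuron over proliferating, ran from -0.35 to 1.37 with a median of 0.098, against 0.092 for all tested genes. The groups did not overlap for 1 of the 8 (Smarca2, neuron above), against 19.2% of all tested genes, and 0 of the 8 had both neuron libraries below, against 6.59%. With the library number as a term in edgeR, 0 of the 8 were called, against 0.495% of all tested genes, or 0.408% with GC correction.

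**Figure D1:**
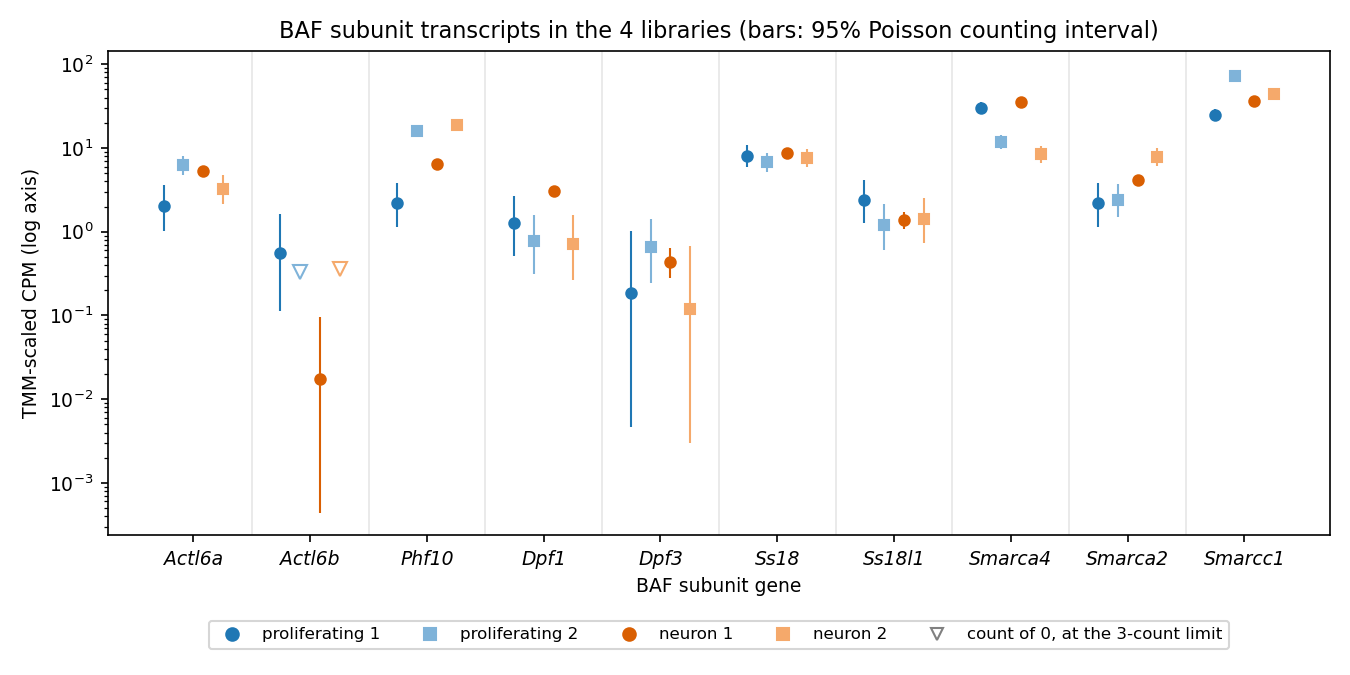
TMM-scaled CPM (log axis) of the 10 subunit genes in the 4 libraries, with circles for number 1, squares for number 2, blue for proliferating and orange for neuron. Bars are 95% Poisson counting intervals, and open triangles mark counts of 0 at the 3-count limit. Smarcc1 is the highest gene in 3 libraries and Smarca4 in proliferating 1, and Phf10 and Smarca4 separate by number rather than by colour.

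Actl6a, the actin-related subunit of progenitors (ENSMUSG00000027671, GENCODE M21 on mm10, chromosome 3, 32706298 to 32726973), was counted 11 and 57 times under the proliferating label, and 309 and 27 times under the neuron label. These gave 2.03 and 6.27 scaled CPM against 5.35 and 3.23. Proliferating 1 was the lowest library and proliferating 2 the highest, so the neuron libraries lay between them. The log2 fold change was 0.044 (SE 1.04, 2 libraries per group), and it changed sign without proliferating 1 (-0.54) and without neuron 1 (-0.41). Within number 1 the neuron library was higher, with a log2 ratio of 1.17, and within number 2 it was lower, at -0.94. These within-number ratios are set relative to the median of all tested genes and have no test.

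Actl6b, the actin-related subunit that neurons take up (ENSMUSG00000029712, chromosome 5, 137553517 to 137569582), was at the edge of detection. Proliferating 1 held 3 counts, neuron 1 held 1, and both libraries numbered 2 held 0, neuron 1 being the library with most counts outside ribosomal RNA. Its level was 0.552 scaled CPM in proliferating 1 and 0.0173 in neuron 1. The 3 counts of proliferating 1 put its share of the pair's counts at 21.4%, with a 95% Wilson interval of 7.57% to 47.6%. Such intervals, here and for the pairs below, cover counting error within a library and not the spread between libraries. In neuron 1 the share was 0.323% (0.057% to 1.80%), in proliferating 2 it was 0% (up to 6.31%) and in neuron 2 it was 0% (up to 12.5%). The share was highest in proliferating 1, where its interval overlapped that of neuron 2. The log2 ratio of Actl6b over Actl6a, with 0.5 added to each count, differed by -2.45 on average, neuron minus proliferating, with a pooled SD of 2.74. The difference was 0.11 without proliferating 1. For the 5 pairs compared here no test was run, since 2 libraries against 2 cannot go below an exact two-sided permutation p of 0.333.

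Phf10, the PHD-finger subunit of progenitor BAF and of the related PBAF complex (ENSMUSG00000023883, chromosome 17, 14945009 to 14961273), was counted 12 and 147 times (proliferating) and 373 and 159 times (neuron). The levels were 2.21 and 16.2 scaled CPM against 6.46 and 19.0. Both libraries numbered 2 lay above both numbered 1, while the groups overlapped. The log2 fold change between groups was 0.46 (SE 1.12). It was -0.35 without proliferating 1, -0.73 without neuron 2 and 2.50 without proliferating 2. The within-number log2 ratios were 1.32 and 0.23, both positive, as were those of 27% of all tested genes.

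Dpf1, a neuronal counterpart of Phf10 (ENSMUSG00000030584, chromosome 7, 29303951 to 29318243), was counted 7 times in each proliferating library, 177 times in neuron 1 and 6 times in neuron 2. Its levels were 1.29 and 0.771 scaled CPM against 3.06 and 0.719. Neuron 1 was the highest library and neuron 2 the lowest, so Dpf1 was not raised in the neuron group as a whole. The log2 fold change was 0.92 (SE 1.25), and without neuron 1 it was -0.59. Dpf3, the other counterpart (ENSMUSG00000021221, chromosome 12, 83213745 to 83487716), was counted 1 and 6 times (proliferating) and 25 times and 1 time (neuron). Its levels, 0.184 and 0.661 against 0.433 and 0.12 scaled CPM, were low throughout, and with no count filter its log2 fold change in edgeR was -0.54 (SE 1.78, adjusted p = 0.999).

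Dpf1 made up 36.8% of the counts of Dpf1 and Phf10 in proliferating 1 (95% Wilson interval 19.1 to 59.0) and 32.2% in neuron 1 (28.4 to 36.2). For number 2, the Dpf1 share came to 4.55% under the proliferating label (2.22 to 9.08) and to 3.64% under the neuron label (1.68 to 7.71). In these libraries the share parted by number and not by label, with counting intervals that overlapped within each number and did not overlap between numbers. The GC content was 58.6% for Dpf1 and 43.3% for Phf10, and the share was not corrected for the GC trend described below. Between numbers, number 2 over number 1, the log2 fold changes were -1.48 for Dpf1 and 2.14 for Phf10. With GC correction they were 0.95 and 1.02. The part of GC content in the share was not tested. The log2 ratio of Dpf1 over Phf10 was -0.34 within number 1 and -0.32 within number 2, neuron minus proliferating. Its mean difference of -0.33 had a pooled SD of 2.51, and was 1.45 without proliferating 1 and 1.44 without neuron 2. Dpf3 made up 7.69%, 3.92%, 6.28% and 0.625% of the counts of Dpf3 and Phf10 in proliferating 1, proliferating 2, neuron 1 and neuron 2. Its ratio to Phf10 differed by -1.52 (pooled SD 1.60), and by -0.091 without neuron 2. Neither mean ratio was higher under the neuron label, and both differences were smaller than the spread between libraries.

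**Figure D2:**
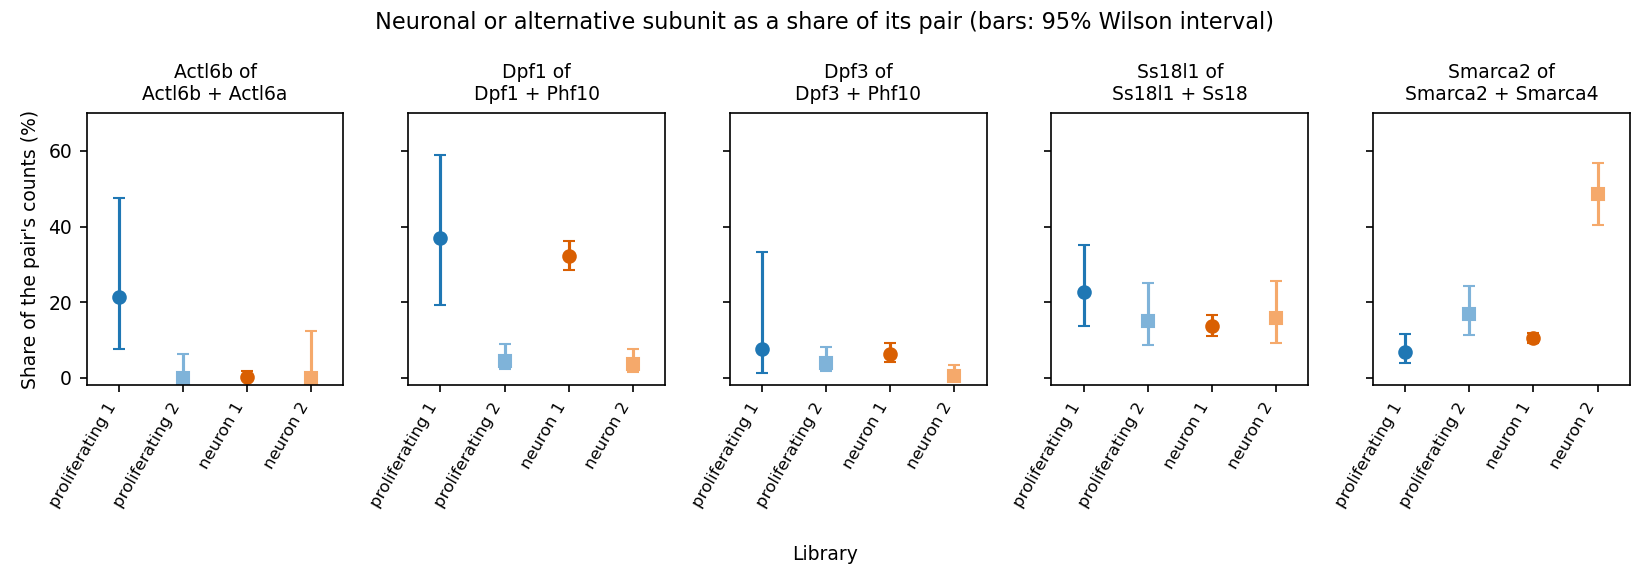
Share of a pair's counts (%) taken by the neuronal subunit, or by Smarca2 in the ATPase pair, in each library, with 95% Wilson intervals, for 5 pairs. The Dpf1 share is 36.8% and 32.2% for number 1 but 4.55% and 3.64% for number 2, and the Smarca2 share is highest in neuron 2, at 48.5%.

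Ss18, the progenitor form of a subunit that binds the ATPase module (ENSMUSG00000037013, chromosome 18, 14624198 to 14682914), had the smallest range of log2 level over the 4 libraries among the 10 genes. It had 44, 62, 500 and 64 counts in proliferating 1, proliferating 2, neuron 1 and neuron 2, or 8.10, 6.83, 8.65 and 7.66 scaled CPM. The groups overlapped, and the log2 fold change was 0.13 (SE 0.94), with -0.066 without proliferating 2 and -0.049 without neuron 1. Ss18l1, its calcium-responsive counterpart in neurons (ENSMUSG00000039086, chromosome 2, 180042509 to 180070201), had 13, 11, 79 and 12 counts, or 2.39, 1.21, 1.37 and 1.44 scaled CPM. Proliferating 1 was the highest library for Ss18l1 and the other three were close together. The log2 fold change was -0.35 (SE 1.17), and 0.21 without proliferating 1. Of the pair's counts, Ss18l1 took 22.8% (95% Wilson interval 13.8 to 35.2) and 15.1% (8.63 to 25.0) under the proliferating label. Under the neuron label it took 13.6% (11.1 to 16.7) and 15.8% (9.27 to 25.6). All 4 intervals overlapped. The log2 ratio of Ss18l1 over Ss18 differed by -0.43, neuron minus proliferating, away from the neuronal member and slightly beyond its pooled SD of 0.39, with -0.93 within number 1 and 0.075 within number 2. It was -0.069 without proliferating 1, so the difference rested on that library.

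Smarca4, also called Brg1, the ATPase on which neural progenitors depend (ENSMUSG00000032187, chromosome 9, 21616169 to 21704230), was counted 163 and 108 times (proliferating) and 2040 and 70 times (neuron). Its levels were 30.0 and 11.9 scaled CPM against 35.3 and 8.38. Both libraries numbered 1 were above both numbered 2, and within each number the labels differed by less, with log2 ratios of 0.044 and -0.50. The log2 fold change between groups was 0.066 (SE 1.07). It was -0.59 without proliferating 2 and -1.44 without neuron 1, and 0.88 without proliferating 1 and 0.57 without neuron 2.

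Smarca2, also called Brm, the alternative ATPase (ENSMUSG00000024921, chromosome 19, 26605050 to 26778322), was the 1 listed gene with both neuron libraries above both proliferating libraries, as were 12.6% of all tested genes. Its counts were 12 and 22 (proliferating) and 240 and 66 (neuron), or 2.21 and 2.42 against 4.15 and 7.90 scaled CPM. Its log2 fold change of 1.37 (SE 1.03) was the largest of the 8, with an adjusted p of 1.00 in edgeR, and it ranged from 0.65 to 1.69 when 1 library was left out. The within-number log2 ratios were 0.69 and 1.67. Smarca2 took 6.86% of the counts of the 2 ATPases in proliferating 1 (95% Wilson interval 3.97 to 11.6) and 10.5% in neuron 1 (9.33 to 11.9), and those intervals overlapped. For number 2 the share was 16.9% under the proliferating label (11.4 to 24.3) against 48.5% under the neuron label (40.3 to 56.9), and the intervals did not overlap. The mean log2 ratio of Smarca2 over Smarca4 was higher by 1.40 in the neuron libraries (pooled SD 1.66), so this difference was smaller than the spread between libraries. The mean difference depended on neuron 2, without which it was -0.095, with neuron 1 set against both proliferating libraries. Within number 1 the log2 ratio differed by 0.62, neuron minus proliferating, and within number 2 by 2.19. The GC content was 46.5% for Smarca2 and 56.0% for Smarca4, and neither the shares nor the ratios were corrected for the GC trend described below. With the library number as a term, the log2 fold changes were 1.32 for Smarca2 and -0.13 for Smarca4. With GC correction as well they were 0.99 and 0.088. The part of GC content in the shares was not tested. The genes of dividing cells moved with Smarca2 in both numbers, as given above, and their part in it was not tested.

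Smarcc1, a scaffold on which BAF complexes assemble (ENSMUSG00000032481, chromosome 9, 110117708 to 110240178), was counted 135 and 667 times (proliferating) and 2102 and 371 times (neuron). Its levels were 24.9 and 73.4 scaled CPM against 36.4 and 44.4, so the neuron libraries again lay between the proliferating ones. The log2 fold change was -0.28 (SE 1.05), and 0.64 without proliferating 2. Within the numbers the log2 ratios were 0.36 and -0.72.

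**Figure D3:**
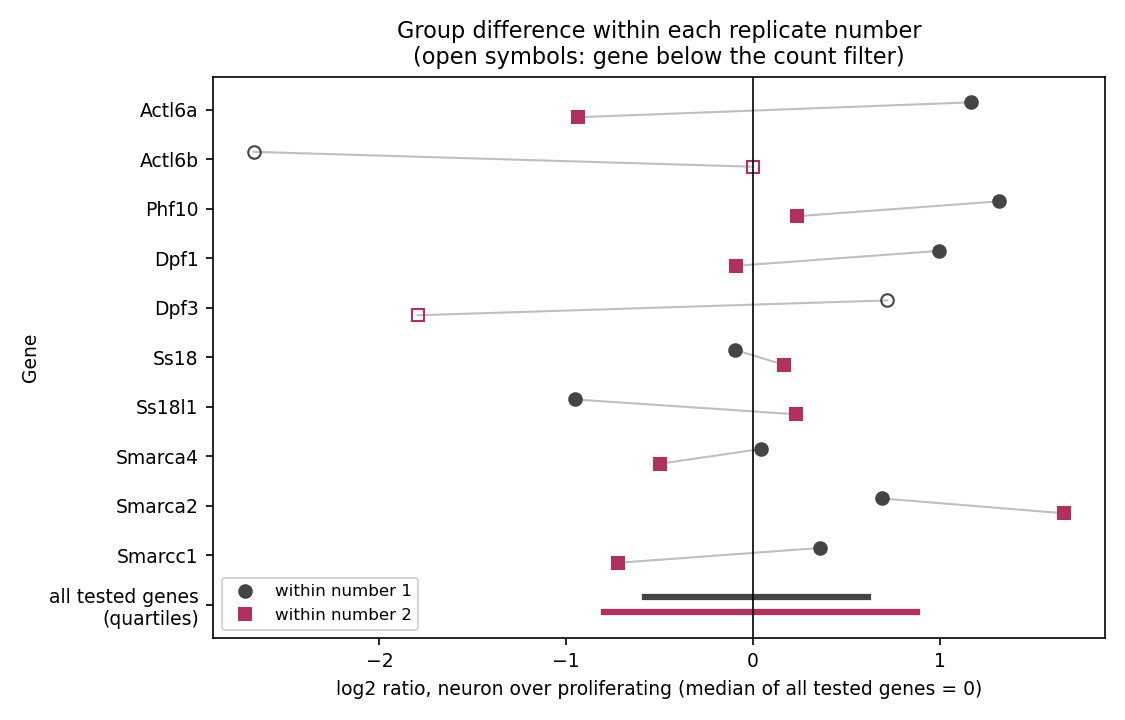
Log2 ratio of neuron over proliferating within number 1 (circles) and within number 2 (squares) for each subunit gene, relative to the median of all tested genes, with open symbols for genes below the count filter and bars for the quartiles of all tested genes. Phf10 and Smarca2 are positive in both numbers, and Actl6a runs from 1.17 to -0.94.

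Of the 8 tested subunits, 2 (Phf10 and Smarca2) had ratios of the same sign in both numbers, against 52.6% of all tested genes. The 3 progenitor subunits had a median log2 fold change of 0.13, and the 2 tested neuronal subunits 0.28. Those 2 went opposite ways, with Dpf1 at 0.92 and Ss18l1 at -0.35. The 2 neuronal subunits below the count filter were at -3.56 (Actl6b, SE 2.29) and -0.54 (Dpf3, SE 1.78) when no filter was used. So the medians do not show a shift toward the neuronal subunits.

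Compared per length, the order of the subunits within a library showed which position each gene held. Levels here are scaled CPM per kilobase of gene. Smarcc1 was first in all 4 libraries, at 4.38 and 12.9 (proliferating) and 6.41 and 7.83 (neuron). Smarca4 was rank 2 for number 1, at 3.38 in proliferating and 3.98 in neuron, and rank 5 for number 2, at 1.34 and 0.945. Phf10 took rank 2 for number 2, at 3.61 and 4.25, but stood at 0.493 and 1.44 for number 1. Smarca4 stood at 0.772 of the level of Smarcc1 per length in proliferating 1 and 0.621 in neuron 1, and at 0.104 and 0.121 in proliferating 2 and neuron 2. A ratio of 2 genes in 1 library does not depend on how that library is scaled. It can still carry a library's trend with GC content, which is described below. That content was 56.0% for Smarca4 and 48.4% for Smarcc1, and no ratio of genes was GC-corrected. Actl6b was rank 10 in 3 libraries and rank 8 in proliferating 1, where Dpf3 was rank 10.

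At several subunits the libraries parted by number. Of the 8 tested, 2 (Phf10 and Smarcc1) had both libraries numbered 2 above both numbered 1, against 25.6% of all tested genes. Another 3 (Dpf1, Ss18 and Smarca4) had them below, against 38.1%, so 5 of the 8 did not overlap, against 63.7%. A comparison of the numbers, added after the data were seen, used edgeR with terms for group and number and left 1 residual degree of freedom. Between numbers, 7.44% of all tested genes were called higher in number 2 and 15.9% lower. Of the 8 subunits, Phf10 was higher in number 2, with a log2 fold change of 2.14 (SE 0.64, adjusted p = 0.00753 in edgeR), and Smarca4 was lower, at -1.71 (SE 0.61, adjusted p = 0.0284 in edgeR). Dpf1 was at -1.48 (SE 0.89) and Smarcc1 at 0.92 (SE 0.60), neither past the threshold. The GC content of the transcripts moved with this difference. It was 43.3% for Phf10 and 56.0% for Smarca4. After each library's trend with GC was removed, neither gene was called, with 1.02 for Phf10 (adjusted p = 0.396 in edgeR) and 0.15 for Smarca4 (adjusted p = 0.938 in edgeR), and 3.07% and 2.21% of all tested genes were called higher and lower.

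Over the 29 tested genes among 31 BAF, PBAF and ncBAF subunits, the Spearman correlation of GC content with the log2 difference between numbers was -0.69, and it was -0.77 over all tested genes with a GC value. The group ratio also went with GC content over all tested genes, at -0.27 within number 1 and -0.38 within number 2. These are descriptions across genes of the same 4 libraries, with no test. Of the 12 tested subunits with GC below 50%, 10 were higher in number 2, and of the 17 at or above 50%, 14 were lower.

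**Figure D4:**
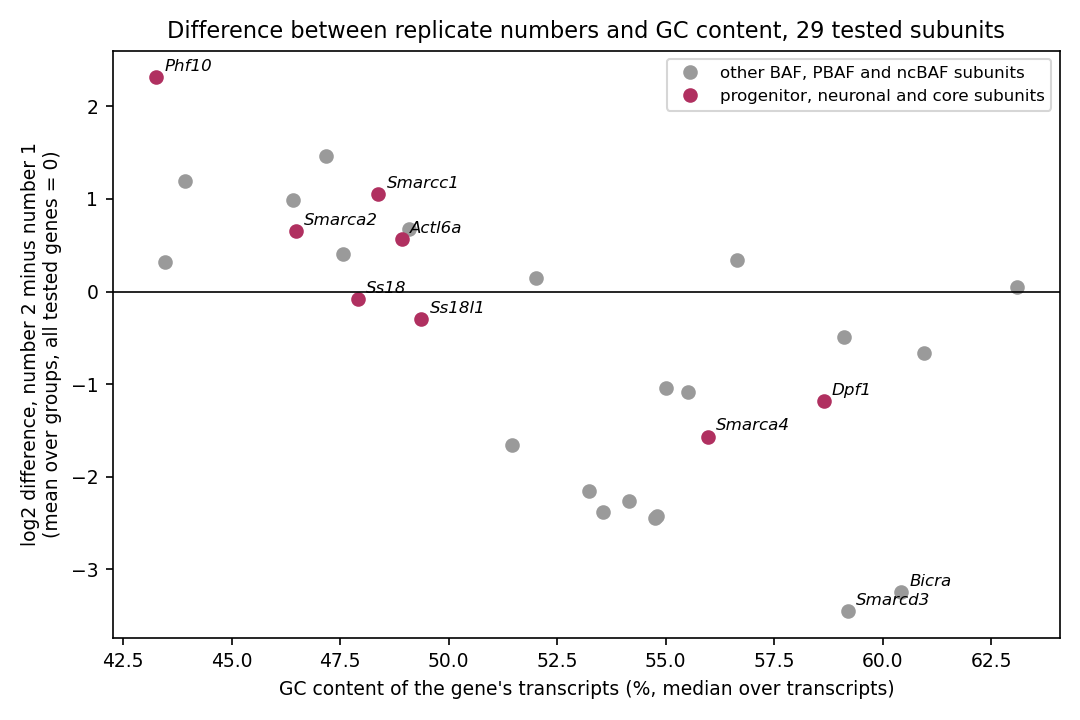
Log2 difference of number 2 minus number 1, averaged over the groups and relative to all tested genes, against the GC content (%) of the transcripts of 29 tested subunits. Phf10 (43.3% GC) lies highest and Smarca4 (56.0%) and Dpf1 (58.6%) lie among the genes that are lower in number 2.

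The other 21 subunits of these complexes had 0 of 21 genes called between groups in either direction, against 0% of all tested genes, with a median log2 fold change of -0.19. Their values ran from -1.28 to 1.19, and 10 were lower and 3 higher in the neuron library of both numbers, against 25.6% and 27% of all tested genes. Pbrm1, the bromodomain subunit of PBAF, had 45, 137, 908 and 316 counts in proliferating 1, proliferating 2, neuron 1 and neuron 2, with a log2 fold change of 1.19 (SE 1.02), both neuron libraries above both proliferating ones. That held for 1 of the 21, against 12.6% of all tested genes. The reverse held for 2, the PBAF subunit Arid2 (-0.23, SE 0.95) and the non-canonical subunit Bicral (-0.19, SE 1.12), against 6.59%. At the low end were Bicra, a subunit of the non-canonical complex, at -1.28 (SE 1.38), Bcl7a at -1.27 (SE 1.09) and Arid1a, the large DNA-binding subunit of canonical BAF, at -0.76 (SE 1.17). Without proliferating 1 these were 0.73, 0.023 and 0.62, and without neuron 1 they were -5.18, -2.48 and -3.06. Leaving out 1 library turned the sign of 18 of the 21, while Pbrm1 ranged from 0.23 to 1.66. By complex, the 3 PBAF genes (Arid2, Pbrm1, Brd7) had a median of 0.42, the 3 non-canonical genes (Brd9, Bicra, Bicral) of -0.40 and the 5 genes particular to canonical or neural BAF (Arid1a, Arid1b, Dpf2, Bcl11a, Bcl11b) of -0.27.

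Between numbers, 8 of these 21 genes were called lower in number 2 and 0 higher, against 15.9% and 7.44% of all tested genes. Arid1a, with 201, 80, 1376 and 25 counts in proliferating 1, proliferating 2, neuron 1 and neuron 2, was at -2.51 (SE 0.63, adjusted p = 0.00136 in edgeR). The PHD subunit Dpf2, which canonical BAF carries in most cells, was at -2.37 (SE 0.76). Actb, the actin that pairs with Actl6a in the complex and is also a cytoskeletal gene, was at -2.55 (SE 0.65). The other called genes were Smarcd1, Smarcd2, Smarcd3, Bcl7a and Bicra. Smarcd3, a subunit of muscle and neural cells, was counted 8 and 46 times in number 1 and 0 times in either library of number 2, where 0 allows at most 0.359 scaled CPM in a library. After the GC trend was removed, 0 of the 21 were called lower, against 2.21% of all tested genes, and 2 were called higher, Arid1b (1.87) and Bcl11b (2.64), against 3.07%. Of the 8 genes called before, none changed sign: Smarcd3 was then at -7.26, Arid1a at -1.43, Dpf2 at -1.40, Bcl7a at -1.39 and Actb at -1.04. Smarcd2, Smarcd1 and Bicra were at -1.27, -1.15 and -0.85.

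Genes that govern the exchange were read in the same way, and 0 of the 8 tested were called, against 0% of all tested genes. Rest, the repressor of neuronal genes, stood at 4.60 and 5.17 scaled CPM (proliferating) and 3.67 and 7.54 (neuron), with a log2 fold change of 0.19 (SE 0.99). Mir9-3hg, the host transcript of Mir9-3, had 7.18 and 0.771 scaled CPM against 1.21 and 0.24, and the host transcript Mir124a-1hg had 1.66 and 0.22 against 0.381 and 0. The log2 fold changes were -2.35 and -1.97, and neither host was called. In the fit by group alone both values depended on proliferating 1, without which they were -0.014 and 0.074. With the library number as a term they were -2.31 (SE 0.88, adjusted p = 0.312 in edgeR) and -2.30 (SE 1.25, adjusted p = 0.68 in edgeR). In number 2 the counts of Mir124a-1hg, 2 against 0, lay within the 3-count limit. The long transcript C130071C03Rik, which spans Mir9-2, had 14.2 and 10.5 against 4.93 and 10.7 scaled CPM. Its log2 fold change was -0.67, and -0.75 with the number as a term. With GC correction as well it was -2.02 (adjusted p = 0.0874 in edgeR). The microRNA genes Mir9-1, Mir9-2, Mir124a-1, Mir124a-2 and Mir124a-3 had at most 1 count in any library, and these files hold no measure of mature microRNAs. Ptbp1 and Ptbp2, splicing repressors that exchange as neurons form, had log2 fold changes of 0.32 and 0.71. Without neuron 2, Ptbp2 was -1.30 and Rest -0.61, and Ptbp1 was -0.91 without neuron 1 and -0.082 without proliferating 1.

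Other remodelling ATPases gave a comparison outside the BAF family. Of the 6 tested of 7, 0 were called between groups, against 0% of all tested genes, and the 2 with the highest mean level were Smarca5, the ISWI ATPase, and Atrx, which works with a histone chaperone. Smarca5 stood at 8.66 and 37.4 scaled CPM (proliferating) and 15.1 and 81.2 (neuron), with a log2 fold change of 1.06 (SE 1.17), or -0.82 without neuron 2. Atrx was at 7.18 and 20.6 against 15.2 and 93.9 scaled CPM, with 1.97 (SE 1.18), or -0.074 without neuron 2. Hells, a helicase that supports DNA methylation and named here after its values were seen, had the largest log2 fold change of the 6, at 2.34 (SE 1.27), with 0.552 and 6.83 against 5.73 and 32.5 scaled CPM. It ranged from 0.40 to 5.09 when 1 library was left out. For Smarca5 and Atrx the libraries numbered 2 were the higher ones, and their GC contents were 39.0% and 40.5%.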

How the data were processed

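The authors deposited raw counts per gene and RPKM values, 1 file of each per library. HISAT2, SAMtools, featureCounts and DESeq2 are named in the submitters' processing notes, with mm10 as the build. Tool versions, annotation and strand setting are not given in the sources used here. Where genes overlap, their reads may therefore not be told apart. Per the labels' protocols, ribosomal RNA was depleted and the library kit was stranded. The deposited RPKM values were scaled to totals that include ribosomal RNA: counts and RPKM gave 1 length per gene, within a relative tolerance of 0.001, for 17709 of 17709 genes checked. Those lengths were used for levels per kilobase.

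The groups were tested on counts by edgeR 4.0.16 under R 4.3.3 (quasi-likelihood test, TMM, filterByExpr, group alone), with Benjamini-Hochberg adjustment over 11525 genes and a threshold of 0.05. SEs are the fold change divided by the root of the F statistic. Within-number ratios are differences of log2 CPM with a prior count of 2. The GC correction was a spline with 5 degrees of freedom per library on the median GC of a gene's GENCODE M21 transcripts, known for 93.9% of tested genes. Both edgeR fits and the correction were run on simulated counts. The counts simulated for the fits held no difference between numbers, unlike these libraries, so that run does not show their power here. Alternatives included DESeq2 1.42.0 and limma 3.58.1. The listed genes, marker lists and tests were chosen with earlier results of these data known. The named genes were all 10 subunits, any other subunit or exchange regulator listed, the 2 other ATPases of highest mean log2 CPM, and Mki67, Top2a, Map2, Stmn2 and Sox2 as label checks. Positions are from GENCODE M21, promoter and microRNA sequences from RefSeq (GRCm38.p6). An otic marker, and the sum over the otic list that holds it, are not reported here.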

Additional observations from a re-analysis of the deposited data

How the results depend on the processing

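Counts of called genes, higher and lower in the neuron libraries, were 0 and 0 in every setting without the block, and 0 and 0 when any 1 library was left out. With the replicate number as a block they were 42 and 15, and with the replicate block and GC correction 25 and 22, none of them a BAF subunit. Among other listed genes the block called Hells (2.64, adjusted p = 0.0284 in edgeR, or 1.60 and 0.429 with GC correction), 4 genes of dividing cells, 1 neuronal and 3 glial markers (3, 1 and 2 with GC correction). With GC correction, Smarca5 was -0.11 and Atrx 0.72. Smarca2 went from 1.32 with the block to 0.99 with GC correction, Phf10 from 0.83 to 0.15 and Pbrm1 from 1.13 to 0.53. Dpf1 went the other way, from 0.66 to 0.91. The labels do not say what a number shares, and deviations from the group means correlated at 0.69 between same-numbered libraries. Over 104 alternative values of the 8 subunits, 0 passed the threshold (lowest adjusted p 0.65, for Smarca2 with the block) and 25 changed sign. Of those, Actl6a was -0.089 with DESeq2 size factors, -0.028 with rRNA genes set aside and -0.068 with DESeq2, and Smarca4 was -0.095, -0.076 and -0.058 in the same settings and -0.13 with the replicate block. Ss18 was -0.074 with the block and GC correction. Ss18l1 and Smarcc1 were 0.016 and 0.94 with library totals alone, 0.40 and 0.97 with limma on log2(RPKM + 0.1), and 0.033 and 0.85 on log2(RPKM + 1). In those settings the all-gene median moved to 0.86, 0.74 and 0.26. The cause was not tested.

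When 1 library was left out, the values ranged from -0.54 to 0.99 (Actl6a), -0.73 to 2.50 (Phf10), -0.59 to 1.40 (Dpf1), -0.066 to 0.26 (Ss18), -0.84 to 0.21 (Ss18l1), -1.44 to 0.88 (Smarca4), 0.65 to 1.69 (Smarca2) and -0.86 to 0.64 (Smarcc1). The log2 ratios ranged from -5.02 to 0.11 (Actl6b over Actl6a), -2.11 to 1.45 (Dpf1 over Phf10), -2.95 to -0.091 (Dpf3 over Phf10), -0.79 to -0.069 (Ss18l1 over Ss18) and -0.095 to 2.91 (Smarca2 over Smarca4), and moved by less than 1 SD with 0.1 or 1 count added or on RPKM. Between numbers, the GC correction changed the sign for Dpf1 (0.95), Smarca4 (0.15) and Smarca2 (-0.0071). With 1 library left in a group, that library is assumed to vary like the others. Depth limits Actl6b and Dpf3 most, with at most 3 and 25 counts in a library.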
